A study of Mus musculus with 29 samples.

Results

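The core clock feedback loop genes Arntl, Clock, Npas2, Per1, Per2, Per3, Cry1, Cry2, Nr1d1 and Nr1d2 were read from the count table by gene symbol. These were 10 of 24770 gene symbols, and each symbol occurred in the table. All mice were wild-type C57BL/6J males that entered the study at 8 weeks of age and were treated for 8 weeks. Sedentary mice with free access to food formed the control group, calorie-restricted mice (CR) were brought stepwise to a final 70% of free intake, exercised mice (EX) were trained by treadmill running, and CREX mice received both treatments. All groups were fasted for 6 h before harvest, and trained mice were harvested 24 h after the last run. The paper also states a fast of 3 h before exercise. Running and that fast cannot be told apart, and training below means both. Brown adipose tissue (BAT) was profiled in 3 control, 4 CR, 4 EX and 4 CREX libraries. The gastrocnemius, here called skeletal muscle (SkM), was profiled in 4 control, 3 CR, 4 EX and 3 CREX libraries. The clock time of the harvest and the hour at which restricted mice were fed were not given in the sources used here. Whether the groups were harvested at the same clock time was not given either. A difference in harvest hour between groups therefore cannot be told apart from a difference between treatments. With 1 harvest per mouse, a shifted phase, a changed amplitude and a changed mean level cannot be told apart. Every value below is a level at the harvest of that mouse.

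The mammalian clock is a transcription loop that runs in nearly every cell. Arntl (also called BMAL1) pairs with Clock, or with its paralogue Npas2, and the pair binds E-boxes to switch on the Per and Cry genes. Their proteins return to the nucleus and block that pair. The same pair drives Nr1d1 and Nr1d2 (REV-ERB alpha and beta), nuclear receptors that repress Arntl through ROR elements, and Nr1d1, the Per genes and Cry1 peak in turn over the day. In peripheral tissues such as BAT and muscle, meal time is a strong timing cue for this loop.

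The loop acts through short elements in promoters, and the 4 promoters of core clock genes in which a searched element was found are printed here. Each is the stretch from 250 bases before to 50 bases after an annotated start site in RefSeq (GRCm38.p6). That is the same assembly as the mm10 build of the files. Of the 10 genes, 9 had an entry, with 13 promoters in all, and Per2 had none. Capitals mark matches to the E-box CACGTG, the D-box TTATGNAA or the ROR element TAGGTCA, searched on both strands. Cry1 is on chromosome 10 at chr10:85185005-85185304 (minus strand), Per1 on chromosome 11 at chr11:69098699-69098998 (plus strand), Per3 on chromosome 4 at chr4:151044616-151044915 (minus strand) and Arntl on chromosome 7 at chr7:113207261-113207560 (plus strand).
Cry1: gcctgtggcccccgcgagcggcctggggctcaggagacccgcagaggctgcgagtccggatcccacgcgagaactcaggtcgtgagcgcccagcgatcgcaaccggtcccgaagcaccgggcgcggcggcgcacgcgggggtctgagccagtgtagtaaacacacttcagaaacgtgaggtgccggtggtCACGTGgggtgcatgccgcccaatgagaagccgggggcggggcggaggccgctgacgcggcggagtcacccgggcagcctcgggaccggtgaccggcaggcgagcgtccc
Per1: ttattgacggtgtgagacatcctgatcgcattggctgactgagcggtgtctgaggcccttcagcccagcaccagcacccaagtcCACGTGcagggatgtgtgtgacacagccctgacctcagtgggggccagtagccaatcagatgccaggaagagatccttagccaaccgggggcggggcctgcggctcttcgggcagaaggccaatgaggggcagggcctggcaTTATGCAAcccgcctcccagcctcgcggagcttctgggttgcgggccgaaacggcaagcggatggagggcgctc
Per3: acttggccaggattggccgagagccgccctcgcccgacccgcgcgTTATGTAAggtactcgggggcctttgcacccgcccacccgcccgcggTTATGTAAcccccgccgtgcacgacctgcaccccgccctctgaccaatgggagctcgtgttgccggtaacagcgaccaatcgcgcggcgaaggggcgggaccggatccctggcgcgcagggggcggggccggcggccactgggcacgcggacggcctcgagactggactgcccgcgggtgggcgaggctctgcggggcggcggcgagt
Arntl: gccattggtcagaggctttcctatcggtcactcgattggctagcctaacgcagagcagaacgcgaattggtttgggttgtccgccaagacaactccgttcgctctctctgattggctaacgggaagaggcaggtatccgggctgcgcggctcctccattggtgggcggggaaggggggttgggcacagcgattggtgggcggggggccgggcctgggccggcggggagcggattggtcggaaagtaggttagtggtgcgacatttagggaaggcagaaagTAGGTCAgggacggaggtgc
The E-box stood at position -60 from the start site in Cry1 and at -166 in Per1, and 7.15% of all 32851 RefSeq promoters of that length hold one. D-boxes, which bind Dbp, Tef, Hlf and their repressor Nfil3, stood at -205 and -158 in Per3 and at -24 in Per1, against 3.38% of all promoters. The Arntl window held a ROR element at position 30 after the start, against 2.61% of all promoters. None of the 13 promoters held the cAMP response element TGACGTCA (1.79% of all) or the glucocorticoid element ACANNNTGT (6.85% of all). The windows of Nr1d1, Nr1d2, Cry2, Clock and Npas2 held none of the searched elements. These matches describe the windows only. In RefSeq the gene bodies of the genes called below lie at chr11:98767932-98775377 (Nr1d1), chr1:91415977-91459351 (Per2), chr4:150997018-151044707 (Per3), chr10:85131700-85185054 (Cry1), chr2:92403646-92434085 (Cry2) and chr7:113178471-113314126 (Arntl).

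Values are normalized read counts (CPM, the count as a share of the library total on the usual scale), scaled by TMM factors within each tissue. Library totals ranged from 21047242 to 24919377 in BAT and from 23050918 to 23425284 in SkM, so that 3 counts corresponded to at most 0.142 CPM. A gene was called when edgeR's Benjamini-Hochberg adjusted p was below 0.05 and the fold change exceeded 1.5. The 10 brown adipocyte markers, among them Ucp1, summed to between 11210 and 16627 CPM in BAT and to between 360 and 918 CPM in SkM. The summed 10 muscle fibre markers, among them Ckm, ranged from 124539 to 206452 CPM in SkM and from 3.67 to 6924 CPM in BAT, with up to 760 CPM in BAT control, 1609 in CR, 4285 in EX and 6924 in CREX. None of these markers was at 0 in its own tissue, and up to 4 brown adipocyte markers were at 0 in a SkM library. One SkM library, CREX replicate 3, stood apart, with Socs3 at 218 CPM against 1.26 to 3.60 CPM in the other SkM libraries. The 6 slow fibre markers summed to 489, 77.6 and 27.6 CPM in the SkM CREX libraries, against 865 to 1910 CPM in control, 1274 to 1766 CPM in CR and 304 to 1768 CPM in EX. Other cell types moved with CR in BAT, where 6 endothelial markers summed to 345 to 389 CPM in control and to 251 to 319 CPM in CR, and 7 immune cell markers to 18.4 to 20.8 CPM and to 9.27 to 14.3 CPM. In SkM the endothelial sum was 251 to 314 CPM in control and 155 to 201 CPM in CR. From EX to CREX, immune cell markers in BAT went from 19.2 to 28.7 CPM to between 10.03 and 17.1 CPM, and endothelial markers in SkM from 249 to 310 CPM to between 110 and 228 CPM. The 4 smooth muscle markers in BAT summed to 59.5 to 67.8 CPM in control, 42.1 to 51.9 CPM in CR, 57.0 to 85.5 CPM in EX and 40.0 to 48.0 CPM in CREX. In BAT the brown adipocyte markers summed to 14789 to 16627 CPM in control and 13762 to 14511 CPM in CR. They summed to 13497.5 to 15174 CPM in EX and 11210 to 13815.5 CPM in CREX. Single markers moved more than the sum, and Ucp1 was at 3841 to 4750 CPM in control BAT and 1871 to 2583 CPM in CR. Of the 10 markers, CR called 2 lower and 0 higher in BAT, against 6.86% and 3.87% of all genes tested. The muscle fibre markers in SkM summed to 124539 to 140037 CPM in control and 152093 to 206452 CPM in CR. Their sums were 137060 to 157543 CPM in EX and 153556 to 194602 CPM in CREX. The part of the brown adipocyte, endothelial, immune, smooth muscle and slow fibre lists in the clock gene values was not tested. Nor was that of the muscle fibre list in SkM. In bulk tissue, a change in the share of a cell type and a change in RNA per cell cannot be told apart.

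In BAT, CR lowered Nr1d1 and raised Cry1, Per2, Per3 and Cry2. These 5 of the 9 core clock genes that passed the low-count filter were called, against 10.7% of the 13323 genes tested. Their levels in CR did not overlap with the control levels for 6 of the 9, against 33.4% of all genes tested. The median log2 fold change of the 9 genes was 0.22, against 0.00 over all genes tested. Arntl, Clock, Per1 and Nr1d2 were not called, and Npas2 did not pass the filter.

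Among the REV-ERB repressors, Nr1d1 was at 150.2, 117 and 129 CPM in control BAT. It was at 35.8, 29.6, 38.0 and 38.1 CPM in CR BAT. Every CR library was below every control library, and Nr1d1 was 3.74-fold lower (log2 fold change -1.90 ± 0.11 SE, edgeR adjusted p = 5.34e-06). Its paralogue Nr1d2 ranged from 47.1 to 58.7 CPM in control and from 55.9 to 67.6 CPM in CR, so the groups overlapped (log2 fold change 0.22 ± 0.09 SE, adjusted p = 0.110).

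Nr1d1 shares 263 exon bases with Thra, the thyroid hormone receptor alpha gene on the opposite strand, and strand handling in the counting was not given in the sources used here. Thra in BAT moved from 72.6 CPM in control to 48.6 CPM in CR, a log2 fold change of -0.58 ± 0.06 SE (adjusted p = 2.22e-04) that stayed under the fold minimum. Expected counts of Nr1d1 were not whole in any library, such as 3436.72 in control BAT replicate 1 and 823.64 in CR BAT replicate 1. Those of the other core clock genes were whole. The part of shared reads in the Nr1d1 value was not tested in either tissue.

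Of the period genes, which encode one arm of the repressor complex, Per2 was at 20.5, 6.88 and 16.9 CPM in control BAT. In CR BAT it was at 50.04, 47.1, 46.9 and 41.0 CPM. Every CR library was above every control library, and Per2 was 3.15-fold higher (log2 fold change 1.65 ± 0.36 SE, edgeR adjusted p = 0.0285). Control replicate 2 carried the low control value. Without that library the adjusted p was 4.33e-04 for Per2, whereas leaving out any single CR library or control replicate 3 moved it above the threshold, between 0.0559 and 0.0736. The Per2 call was also lost with a replicate block (1.82, adjusted p = 0.110) and with no filter on low counts (adjusted p = 0.0531). Per3, which also encodes a period protein, was at 40.9, 45.0 and 36.4 CPM in control and at 91.2, 88.6, 74.4 and 69.3 CPM in CR. It was 1.99-fold higher without overlap (log2 fold change 0.99 ± 0.11 SE, adjusted p = 4.11e-04). Per1, the period gene that also responds quickly to hormones, ranged from 34.1 to 45.5 CPM in control and from 38.5 to 48.2 CPM in CR, with overlapping groups.

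Cry1, the stronger cryptochrome repressor, was at 4.98, 3.62 and 5.45 CPM in control BAT. It was at 24.3, 19.3, 15.6 and 20.9 CPM in CR BAT. The gap between the groups was wide, and Cry1 was 4.27-fold higher (log2 fold change 2.09 ± 0.18 SE, edgeR adjusted p = 1.52e-04). Its paralogue Cry2 was at 22.6, 19.0 and 16.2 CPM in control and at 30.3, 29.4, 29.3 and 27.5 CPM in CR, a 1.51-fold rise just above the minimum (log2 fold change 0.60 ± 0.10 SE, adjusted p = 0.00342). The Cry2 call was lost in 5 of 15 alternatives, with the muscle fibre score as a covariate (0.57), with at least 10 counts in every library (0.58), and without CR replicate 1 (0.57), CR replicate 2 (0.58) or control replicate 3 (0.49).

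Of the activators, Clock was at 28.7, 28.5 and 29.4 CPM in control BAT. It was at 27.4, 19.7, 20.8 and 24.1 CPM in CR. All CR libraries lay below the controls, but the 1.25-fold difference was under the fold minimum (log2 fold change -0.33 ± 0.10 SE, adjusted p = 0.0484). Arntl was low in BAT, at 2.27, 2.17 and 2.10 CPM in control and at 2.21, 1.28, 1.32 and 2.75 CPM in CR. The groups overlapped, and the log2 fold change was -0.21 ± 0.27 SE. Npas2, the paralogue of Clock, was at 1.03 CPM or below in every BAT library, from 1 to 25 counts.

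**Figure D1:**
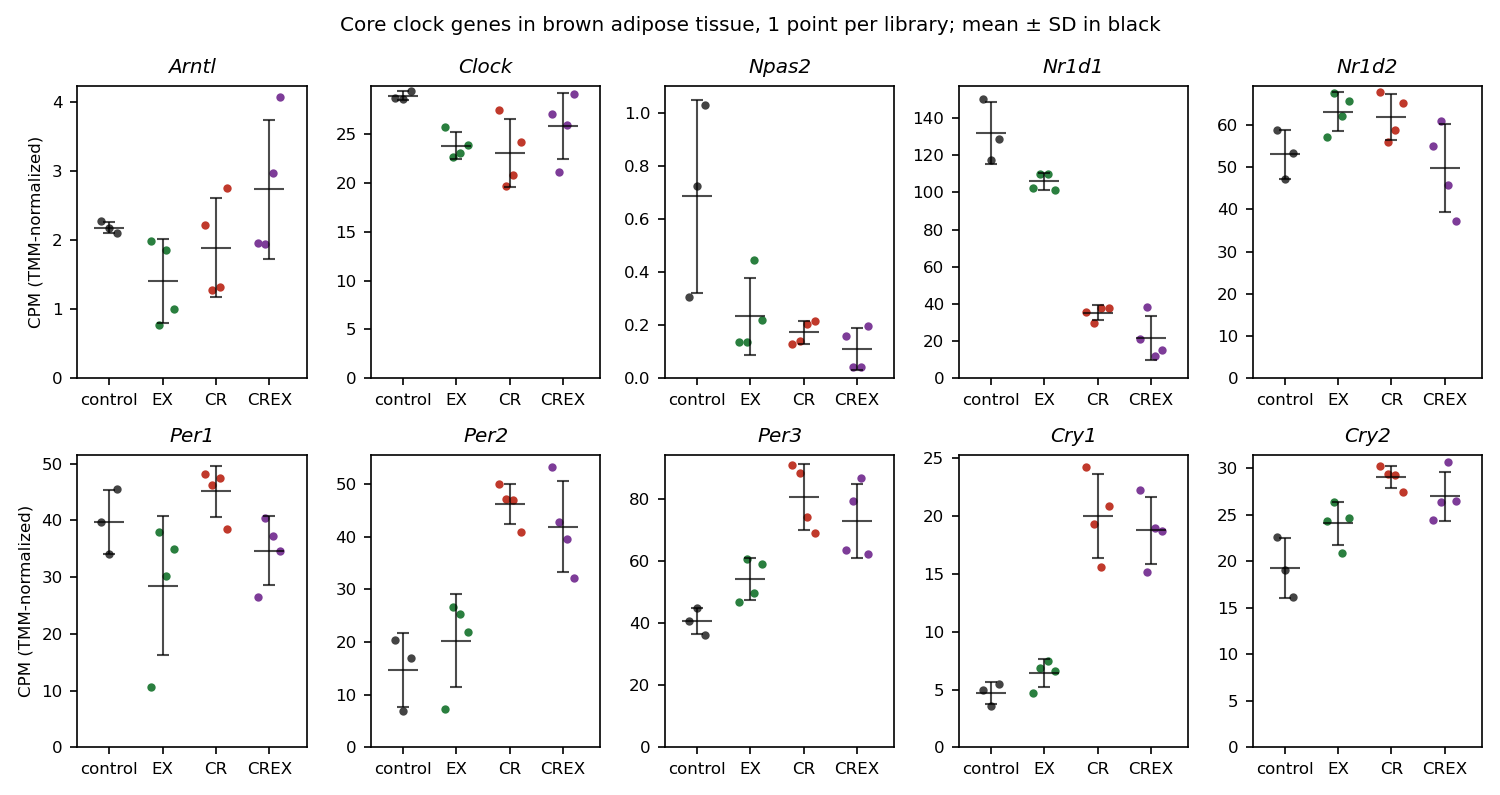
Levels of the 10 core clock genes in BAT (vertical axes, TMM-normalized CPM from 0) in the control, EX, CR and CREX groups (horizontal axes). Points are libraries and black marks are mean ± SD. Nr1d1 was at 101 CPM or above in control and EX libraries and at 38.3 CPM or below in CR and CREX libraries, and Cry1 showed the opposite arrangement.

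With training on both sides, the CREX against EX comparison in BAT called Nr1d1 and Cry1, 2 of the 9 core clock genes tested, against 4.48% of 13251 genes. Nr1d1 was at 102, 110.0, 109.9 and 101 CPM in EX and at 20.996, 38.3, 12.3 and 15.1 CPM in CREX. The groups lay far apart, and Nr1d1 was 4.92-fold lower (log2 fold change -2.30 ± 0.35 SE, edgeR adjusted p = 0.0131). Cry1 was at 4.71, 6.91, 7.45 and 6.61 CPM in EX and at 22.2, 15.2, 19.0 and 18.8 CPM in CREX, 2.91-fold higher (log2 fold change 1.54 ± 0.16 SE, adjusted p = 0.00108). Both differences again left no overlap between the groups.

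Without the 3 BAT libraries with the most muscle fibre RNA (EX replicates 2 and 3 and CREX replicate 3), the Cry1 log2 fold change was 1.73 (edgeR adjusted p = 0.0148). That of Nr1d1 was -2.04 and no longer called (adjusted p = 0.139). The libraries kept there were only EX replicates 1 and 4 and CREX replicates 1, 2 and 4. With the muscle fibre score as a covariate over all libraries, Nr1d1 stayed called (log2 fold change -2.28, edgeR adjusted p = 0.0167). Thra, which overlaps Nr1d1, had a log2 fold change of -0.15 ± 0.10 SE over all libraries of this comparison, with overlapping groups.

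Per2 and Per3 also did not overlap between EX and CREX, which made 4 of 9 genes without overlap, against 17.7% of all genes tested. Per2 was at 7.30, 26.7, 25.2 and 21.8 CPM in EX and at 53.2, 42.7, 39.5 and 32.2 CPM in CREX. The low value belonged to EX replicate 1, and the log2 fold change of 1.04 ± 0.39 SE was not called (edgeR adjusted p = 0.156). Without EX replicate 1 it was 0.77 with an adjusted p of 0.0333. Per3 was at 47.0 to 60.9 CPM in EX and at 62.3 to 86.9 CPM in CREX, with a log2 fold change of 0.42 ± 0.13 SE (adjusted p = 0.0702).

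Arntl in BAT was at 1.99, 0.777, 1.86 and 1.01 CPM in EX and at 1.96, 1.95, 2.97 and 4.07 CPM in CREX. The groups overlapped, and the log2 fold change was 0.95 ± 0.35 SE (edgeR adjusted p = 0.126). Summed muscle fibre markers ranged from 7.05 to 4285 CPM in these EX libraries and from 1149 to 6924 CPM in these CREX libraries. With the muscle fibre score as a covariate the Arntl value was 0.84 (adjusted p = 0.183), and without the libraries richest in muscle RNA it was 0.84 (adjusted p = 0.370). Clock, Per1, Cry2 and Nr1d2 overlapped between the groups, with log2 fold changes of 0.11, 0.28, 0.16 and -0.35, and none was called.

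Training alone called none of the core clock genes in BAT, and edgeR called 0 of 13407 genes in that comparison. Apart from Npas2, 6 of the 9 genes stood at an unadjusted edgeR p under 0.05, against 7.25% of all genes tested, and 4 of 9 did not overlap, against 8.1%. The 6 genes were Clock (log2 fold change -0.27), Nr1d1 (-0.31), Nr1d2 (0.26), Per3 (0.42), Cry1 (0.47) and Cry2 (0.33), with adjusted p from 0.381 to 0.668. Muscle fibre markers had a median log2 fold change of 3.13 in this comparison and slow fibre markers 4.70, with 0 called. With the muscle fibre score as a covariate, the 6 values in that order were -0.26, -0.38, 0.24, 0.44, 0.46 and 0.28. Without the BAT libraries richest in muscle RNA they were -0.23, -0.38, 0.20, 0.38, 0.27 and 0.34, none called. The EX and CR comparisons in BAT share the 3 control libraries. Npas2 passed the filter in this comparison through the control libraries, where it had 7, 18 and 25 counts against 3, 3, 11 and 5 counts in EX, so it is left out of these counts and its log2 fold change of -1.496 is a description.

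Training on top of CR called none of the 9 core clock genes tested in BAT, and 1 of 13112 genes was called overall (0.00763%). Per1 (log2 fold change -0.38 ± 0.13 SE) and Nr1d2 (-0.31 ± 0.14 SE) were at an unadjusted edgeR p under 0.05, 2 of 9 genes against 7.63% of all genes tested. Nr1d1 had a lower mean in CREX, 21.7 ± 11.7 CPM (SD, n = 4) against 35.3 ± 4.00 CPM (SD, n = 4) in CR. CREX replicate 2, at 38.3 CPM, lay above every CR library, and 0 of the 9 genes were without overlap, against 5.15% of all genes tested.

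In SkM, CR raised Per2 and lowered Nr1d1. These were 2 of the 9 core clock genes tested, against 9.6% of 13173 genes. Levels of 4 of the 9 genes (Per2, Nr1d1, Cry1 and Cry2) did not overlap between CR and control, against 27.5% of all genes tested. The median log2 fold change of the 9 genes was 0.32, against 0.00 over all genes tested.

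Nr1d1 was at 148, 245, 261 and 192 CPM in control SkM and at 66.0, 46.2 and 42.3 CPM in CR SkM. It was 4.09-fold lower (log2 fold change -2.03 ± 0.23 SE, edgeR adjusted p = 5.60e-04). Here the overlapping gene Thra had a log2 fold change of -0.03 ± 0.10 SE, with overlapping groups. Nr1d2 overlapped between the groups, at 66.8 to 82.9 CPM in control and 71.2 to 88.2 CPM in CR.

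Per2 was at 12.1, 7.12, 8.59 and 10.4 CPM in control SkM and at 32.5, 35.9 and 33.0 CPM in CR SkM. Replicates lay close together, and Per2 was 3.54-fold higher (log2 fold change 1.82 ± 0.16 SE, edgeR adjusted p = 1.66e-04). Per1 and Per3 overlapped between the groups. Per3 was at 23.998, 43.9 and 40.8 CPM in CR, with 1 library below every control library and 2 above, against 25.8 to 30.9 CPM in control.

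Both cryptochromes were close to the fold minimum in SkM. Cry1 was at 7.82, 8.66, 6.83 and 8.48 CPM in control and at 9.96, 11.6 and 13.7 CPM in CR, a 1.49-fold difference (log2 fold change 0.57 ± 0.14 SE, edgeR adjusted p = 0.0201). Cry2 was at 21.5 to 25.2 CPM in control and at 33.6 to 37.6 CPM in CR, just short of 1.5-fold (log2 fold change 0.58 ± 0.10 SE, adjusted p = 0.00406). Neither reached 1.5-fold, so neither was called, and without a fold minimum 4 of the 9 genes were called, against 14% of all genes tested.

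Arntl in SkM was at 12.1, 18.2, 15.2 and 14.8 CPM in control and at 15.4, 4.19 and 5.08 CPM in CR. The high CR library, replicate 1, lay among the controls while the other two lay below all of them. Over all 3 libraries the log2 fold change was -0.87 ± 0.40 SE (edgeR adjusted p = 0.188), and without CR replicate 1 it was -1.71 (adjusted p = 1.02e-04), so that this library decided the call. CR replicate 1 also had the highest Nr1d1, the lowest Per1, the lowest Per3 and the lowest Cry1 of the CR libraries. Clock had a log2 fold change of -0.44 ± 0.17 SE (adjusted p = 0.119), with overlapping groups.

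**Figure D2:**
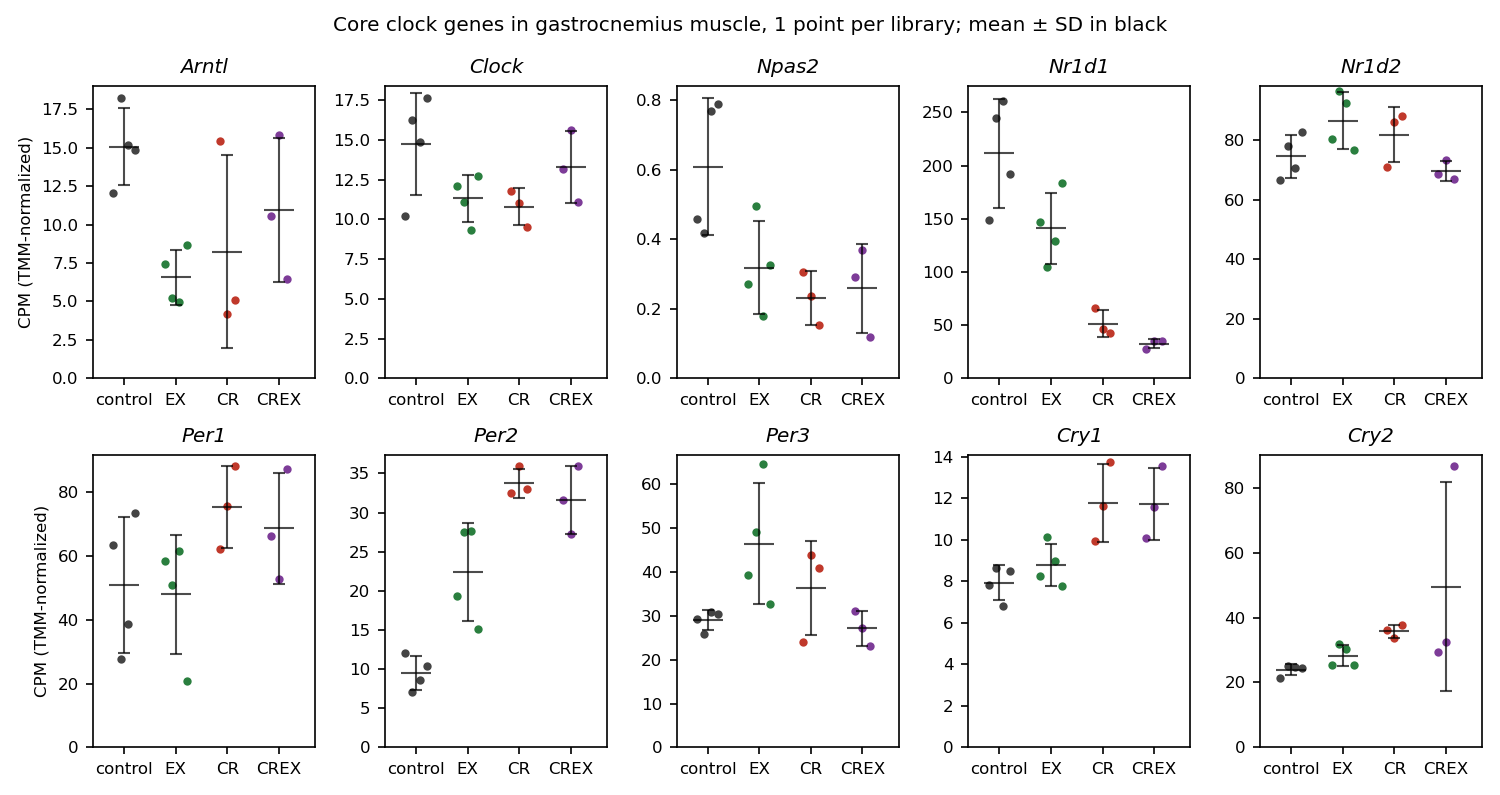
Levels of the 10 core clock genes in SkM (vertical axes, TMM-normalized CPM from 0) in the control, EX, CR and CREX groups (horizontal axes). Points are libraries and black marks are mean ± SD. Nr1d1 was at 66.0 CPM or below in CR and CREX libraries and at 104 CPM or above in the others, Arntl was at 8.66 CPM or below in every EX library, and Cry2 was at 86.6 CPM in CREX replicate 3.

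In the CREX against EX comparison of SkM, Nr1d1 alone of the 9 core clock genes was called, against 8.87% of 13112 genes. The 6 slow fibre markers had a median log2 fold change of -2.74 in this comparison, with 0 called, and their part in the clock gene values was not tested. Nr1d1 was at 147, 104, 130 and 183 CPM in EX and at 28.04, 35.3 and 34.9 CPM in CREX, 4.30-fold lower (log2 fold change -2.10 ± 0.19 SE, edgeR adjusted p = 0.00112). Thra had a log2 fold change of -0.13 ± 0.08 SE. Per3 was at 39.4, 49.0, 64.5 and 32.7 CPM in EX and at 31.0, 27.1 and 23.2 CPM in CREX, without overlap (log2 fold change -0.78 ± 0.22 SE, adjusted p = 0.0515). DESeq2 gave Per3 an adjusted p of 0.00749. Nr1d2 also did not overlap, which made 3 of 9 genes, against 28.3% of all genes tested.

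Cry2 had a log2 fold change of 0.82 ± 0.38 SE in that comparison, with 86.6 CPM in the CREX library that stood apart and 29.5 and 32.6 CPM in the other two. Without that library the Cry2 value was 0.13 (edgeR adjusted p = 0.541) and that of Nr1d1 was -2.16 (adjusted p = 0.00450). Per2 was at 31.6, 27.2 and 35.9 CPM in CREX, against 19.4, 27.5, 27.7 and 15.1 CPM in EX, with a log2 fold change of 0.49 ± 0.21 SE (adjusted p = 0.147). Arntl (log2 fold change 0.73), Cry1 (0.42), Clock (0.23) and Per1 (0.52) were not called, at adjusted p from 0.0706 to 0.368.

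Training alone lowered Arntl in SkM. Arntl was at 7.42, 5.20, 4.97 and 8.66 CPM in EX, all below the 12.1 to 18.2 CPM of control, and was 2.30-fold lower (log2 fold change -1.20 ± 0.17 SE, edgeR adjusted p = 0.0279). It was 1 of the 9 core clock genes tested and 1 of 10 genes called among 12907 (0.0775%). The call was lost in 8 of 15 alternatives, among them the leave-outs of control replicates 2, 3 or 4 and of EX replicates 1, 2 or 3, while the log2 fold change stayed between -1.36 and -1.09.

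Per2 was not called with edgeR but did not overlap between these groups, at 15.1 to 27.7 CPM in EX against 7.12 to 12.1 CPM in control (log2 fold change 1.23 ± 0.22 SE, edgeR adjusted p = 0.0989). Without EX replicate 4 it was 1.37 and called. DESeq2 called Per2 and Per3 as well as Arntl. At an unadjusted edgeR p under 0.05 stood 6 of the 9 genes, against 6.85% of all genes tested. Besides Arntl and Per2 these were Per3 (log2 fold change 0.67), Nr1d1 (-0.59), Clock (-0.39) and Cry2 (0.23). Levels of 4 of the 9 genes did not overlap, against 4.22% of all genes tested. The EX and CR comparisons share the 4 control libraries.

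Adding training to CR called none of the 9 core clock genes in SkM, and edgeR called 0 of 13068 genes. Nr1d1 was at 28.04 to 35.3 CPM in CREX and 42.3 to 66.0 CPM in CR, without overlap, 1 of 9 genes against 7.86% of all genes tested. Its log2 fold change was -0.66 ± 0.19 SE with an unadjusted edgeR p of 0.00743 and an adjusted p of 0.999. All 6 slow fibre markers were also lower in CREX than in CR without overlap (median log2 fold change -3.46, 0 called), and their part was not tested. Nr1d1 was the one core clock gene at an unadjusted p under 0.05, against 3.65% of all genes tested.

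**Figure D3:**
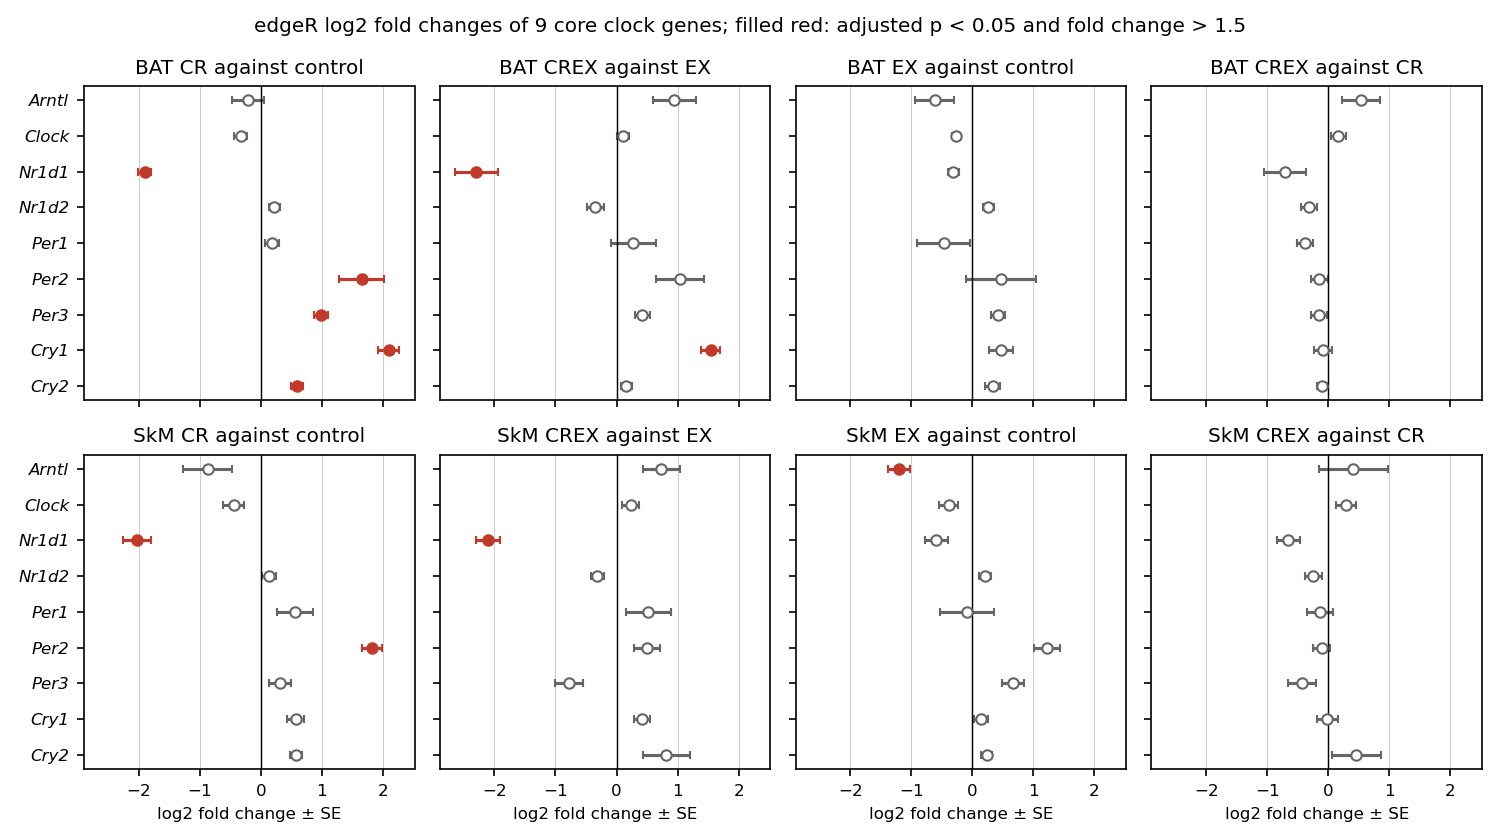
Log2 fold changes (horizontal axes, edgeR estimate ± SE) of the 9 core clock genes other than Npas2 (vertical axes) in the 8 comparisons, BAT above and SkM below. Filled red points are called genes, and Nr1d1 lies between -2.30 and -1.90 in the 4 comparisons of restricted with unrestricted mice.

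Whether the CR difference changed with training was tested as an interaction, the CREX against EX difference minus the CR against control difference. None of the 10 core clock genes had an interaction at an adjusted p below 0.05 in either tissue, nor did any of the 13922 genes tested in BAT or the 13610 in SkM. At an unadjusted edgeR p under 0.05 stood 6 of 10 core clock genes in BAT, against 5.75% of all genes. These were Arntl (1.16 on the log2 scale), Clock (0.44), Per3 (-0.56), Cry1 (-0.55), Cry2 (-0.43) and Nr1d2 (-0.57). In SkM 5 of 10 did, against 4.92% of all genes: Arntl (1.62), Clock (0.69), Per2 (-1.31), Per3 (-1.08) and Nr1d2 (-0.43). Among genes picked at that p in both tissues, the signs were the same, positive for Arntl and Clock and negative for Per3 and Nr1d2. Outside that selection Cry2 (-0.43 in BAT and 0.26 in SkM) and Per1 (0.10 and -0.03) differed in sign. Npas2, Per2, Cry1 and Nr1d1 had the same sign in both tissues. DESeq2 gave the Per2 interaction in SkM an adjusted p of 0.0392, against 0.922 with edgeR.

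The size of the CR difference was compared between tissues as BAT minus SkM. Cry1 rose more in BAT, by 1.53 ± 0.23 SE on the log2 scale for CR against control (edgeR adjusted p = 0.00109), the 1 core clock gene of 10 called, against 7.58% of 14369 genes. For CREX against EX the Cry1 difference was 1.13 ± 0.22 SE (adjusted p = 0.0108). Per3 differed by 1.20 ± 0.26 SE in that comparison (adjusted p = 0.0199), with its log2 fold change at 0.42 in BAT and -0.78 in SkM. These were 2 of 9 genes tested, against 5.58% of 14410 genes. For Nr1d1 the tissues differed by 0.14 ± 0.27 SE and -0.18 ± 0.42 SE, neither called, which does not show equal responses. Labels do not tie BAT and SkM libraries to the same mice, so the tissues were treated as separate.

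Control levels also differed between tissues for 6 of the 10 genes, against 60% of all genes tested. Arntl was 8.32-fold higher in SkM (log2 difference -3.06 ± 0.16 SE for BAT minus SkM, edgeR adjusted p = 5.75e-09). Nr1d1 was 1.94-fold, Nr1d2 1.70-fold, Cry1 2.05-fold and Cry2 1.502-fold higher in SkM, whereas Clock was 1.62-fold higher in BAT. With library totals in place of TMM scaling the log2 differences were -0.26 for Cry2 and -0.44 for Nr1d2, and neither was called. The Cry2 call was lost in 6 of 11 alternatives, 5 of them leaving out single libraries, namely BAT control replicates 2 or 3 or SkM control replicates 2, 3 or 4 (-0.58 to -0.47). That of Clock was lost without SkM control replicate 1 (0.55). Per exon length, the order of mean control levels in BAT was Nr1d1 (48.6 CPM per kb), Nr1d2 (11.4), Per1 (7.07), Per3 (6.79), Cry2 (4.44), Clock (2.91), Per2 (2.53), Cry1 (1.55), Arntl (0.707) and Npas2 (0.162). In SkM the order of levels per exon length was Nr1d1 (77.8 CPM per kb), Nr1d2 (16.0), Per1 (9.05), Cry2 (5.52), Arntl (4.87), Per3 (4.85), Cry1 (2.63), Per2 (1.64), Clock (1.49) and Npas2 (0.144). Neighbours in this order that differed by less than the larger of their SDs were Per1 and Per3, Clock and Per2, and Per2 and Cry1 in BAT, and Per1 and Cry2, Cry2 and Arntl, Arntl and Per3, and Per2 and Clock in SkM.

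Because Per2 and Nr1d1 moved in opposite directions, their ratio within a library was computed as a description, chosen after both values had been seen and with no test. In BAT it ranged from 0.0586 to 0.136 in control, from 0.0712 to 0.243 in EX, from 1.07 to 1.59 in CR and from 1.11 to 3.21 in CREX. In SkM the ratio ranged from 0.0291 to 0.0815 in control, from 0.0826 to 0.263 in EX, from 0.492 to 0.778 in CR and from 0.770 to 1.13 in CREX. In each tissue every restricted library lay above every unrestricted one. The SkM EX ratios all lay above the SkM control ratios, and the BAT EX ratios overlapped the BAT control ratios.

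**Figure D4:**
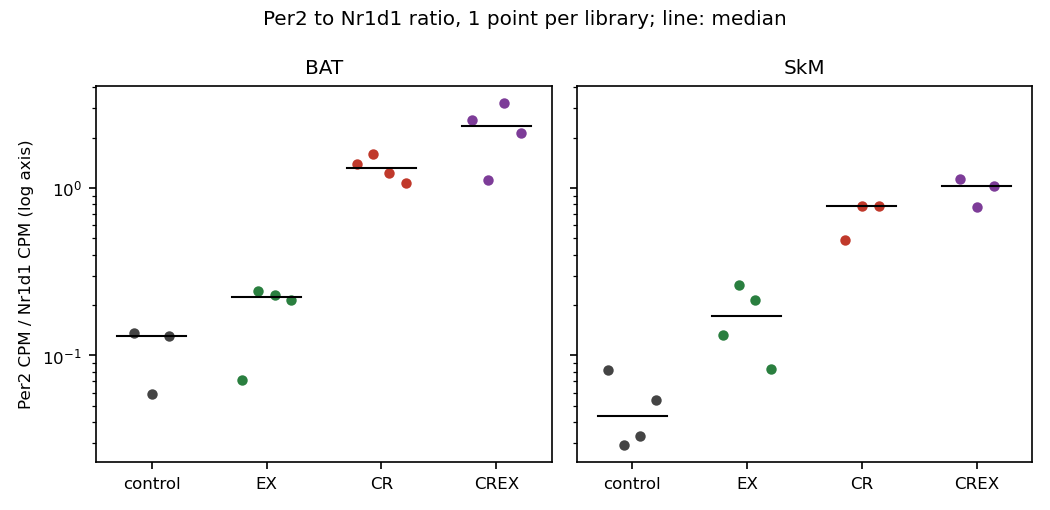
Ratio of Per2 CPM to Nr1d1 CPM in each library (vertical axis, log scale) by group (horizontal axis) in BAT and SkM. Points are libraries and lines are medians. CR and CREX libraries lie at 0.492 or above, and control and EX libraries at 0.263 or below.

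Mice of 1 group differed among themselves, so deviations of log2 CPM from the group mean were compared between Arntl and the other 9 genes in each tissue, 18 relations in all, with permutation within groups. In SkM (n = 14 libraries), Arntl deviated together with Clock (Pearson's r 0.61, permutation p = 0.00535, adjusted 0.0321, and Spearman's rho 0.71, permutation p = 0.00376, adjusted 0.0297). Arntl deviated opposite to Per2 (r -0.59, permutation p = 4.90e-04, adjusted 0.00882, and rho -0.71, permutation p = 5.60e-04, adjusted 0.0101). It also deviated opposite to Per1 (r -0.55, permutation p = 0.00293, adjusted 0.0264, and rho -0.60, permutation p = 0.00495, adjusted 0.0297). Without the 2 libraries farthest from the median of Arntl, r was 0.78 for Clock, -0.77 for Per2 and -0.68 for Per1. With Nr1d1 the relation was r 0.63 and rho 0.64 (adjusted permutation p = 0.0760 and 0.0989). None of the 9 relations in BAT (n = 15 libraries) passed the adjustment. The nearest was Clock, with r 0.65 and rho 0.74 (adjusted permutation p = 0.125 and 0.0971). How many of all genes relate to Arntl this strongly was not computed. In SkM, genes outside the core clock reached rho 0.93 (Eif3d), 0.91 (Zfp341) and 0.89 (Trim27) with Arntl. Within single groups of 3 or 4 libraries no relation could be tested, and whether these deviations follow the time at which each mouse was harvested was not tested.

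**Figure D5:**
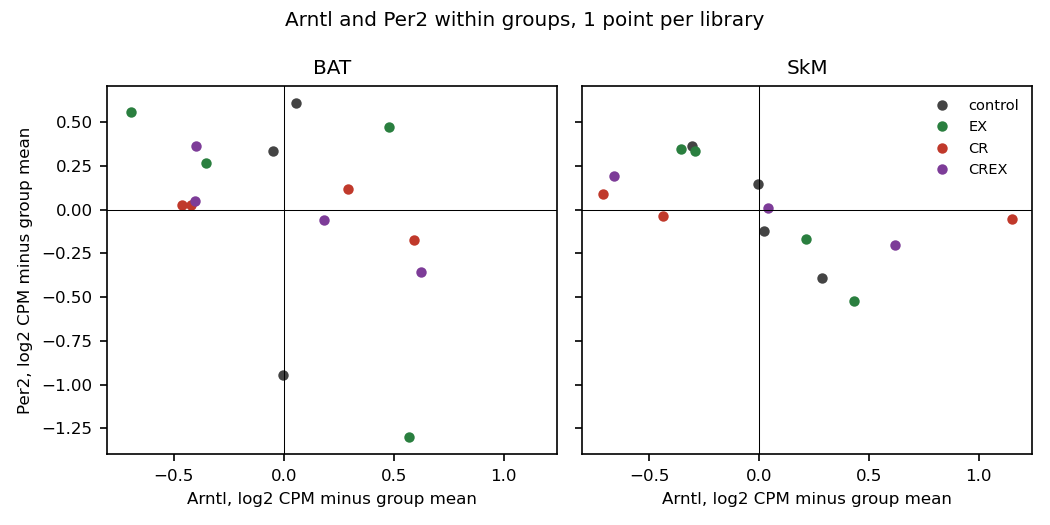
Deviations of Per2 (vertical axis) against deviations of Arntl (horizontal axis), both as log2 CPM minus the group mean, in BAT and SkM. Points are libraries coloured by group. In SkM the points fall from upper left to lower right (rho -0.71), apart from 1 CR library at the far right, and in BAT they scatter more widely (rho -0.41).

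Other genes tied to the clock were taken from 3 lists. Of 10 output and second-loop factors, CR called 2 higher and 1 lower in BAT, and 2 higher and 4 lower of 9 tested in SkM. Among all genes tested, CR called 3.87% higher and 6.86% lower in BAT, and 4.27% higher and 5.32% lower in SkM. Nfil3, the repressor at D-boxes, rose with CR in SkM by 1.93 ± 0.27 SE and from EX to CREX by 2.55 ± 0.29 SE. Dbp, the D-box activator, fell by 1.83 ± 0.21 SE on the log2 scale from EX to CREX in SkM. Bhlhe41 (DEC2), a repressor at E-boxes, fell by 1.31 ± 0.23 SE with CR in SkM, and from EX to CREX it fell by 1.31 ± 0.16 SE in BAT and by 1.46 ± 0.21 SE in SkM. Bhlhe40 fell by 0.75 ± 0.18 SE with CR in BAT. Ciart, a further repressor of the loop, rose by 0.69 ± 0.22 SE with CR in BAT (adjusted p = 0.0486). Rora, a receptor that acts at ROR elements, rose by 0.63 ± 0.12 SE from EX to CREX in BAT.

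Of 12 kinases, ligases and partners of the clock proteins, none was called in BAT and 1 of 11 tested, Timeless, was called lower in SkM, by a log2 fold change of -0.65 ± 0.19 SE for CR and -1.22 ± 0.29 SE for CREX against EX. Of 8 clock-controlled genes of many tissues, CR called 6 higher and 0 lower in BAT and 3 higher and 0 lower in SkM. Over all genes tested, CR called 3.87% higher and 6.86% lower in BAT and 4.27% higher and 5.32% lower in SkM. The 8 genes had a median log2 fold change of 1.05 in BAT and 0.46 in SkM, against 0.00 over all genes in each tissue. Tspan4, Wee1 (a cell cycle kinase) and Lonrf3 rose with CR in BAT by 1.13, 1.11 and 1.62 on the log2 scale. Lonrf3, Tsc22d3 (GILZ) and Wee1 rose in SkM by 2.04, 1.43 and 1.13. From EX to CREX, 4 of the 8 were called higher and 0 lower in BAT, and in SkM 1 was called higher (Tsc22d3) and 1 lower (Tspan4). Among all genes tested, that comparison called 1.86% higher and 2.63% lower in BAT, and 3.7% higher and 5.17% lower in SkM. Training alone called none of these 3 lists in either tissue, nor did training on top of CR.

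Glucocorticoids also act on Per1 and other clock genes, and 8 of their receptor's targets were listed. CR called 2 higher and 3 lower in BAT, and 4 higher and 0 lower in SkM, against the 3.87% higher and 6.86% lower in BAT and the 4.27% and 5.32% in SkM of all genes tested. Fkbp5, a cochaperone of that receptor, was at 1.73 to 6.64 CPM in control BAT and at 49.98 to 70.8 CPM in CR BAT, a log2 fold change of 4.03 ± 0.45 SE (edgeR adjusted p = 0.00340). In SkM Fkbp5 was at 13.1 to 15.5 CPM in control and at 79.7 to 119 CPM in CR (log2 fold change 2.78 ± 0.15 SE, adjusted p = 9.52e-06). Errfi1 and Sgk1 fell in BAT with CR, by 1.04 and 1.49 on the log2 scale, whereas Sgk1 rose in SkM by 0.95. Zbtb16 and Cebpd rose from EX to CREX in both tissues. Whether corticosterone or meal time has a part in the core clock values was not tested.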

How the data were processed

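The series holds RNA-seq of mouse BAT and gastrocnemius, 29 libraries with 1 column each. The authors trimmed the reads, mapped them to mm10 with STAR and estimated counts per gene with RSEM. Deposited expected counts carry no scaling for depth. Submitters' processing notes name STAR 2.7.10a and RSEM 1.2.28. The gene annotation and the counting of strands were not given in the sources used here. Of the symbols, 27 had been turned into dates and 2 occurred more than once, and 6.11% of the values were not whole.

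Expected counts were rounded to whole numbers. Each comparison was fitted on its own groups with edgeR 4.0.16 (R 4.3.3) by the robust quasi-likelihood test, with TMM scaling and filterByExpr, and p-values were adjusted by Benjamini-Hochberg over all genes tested. CPM used TMM factors over the libraries of a tissue. Interactions were tested over the 4 groups of a tissue, and tissue differences over the groups of both tissues. Log2 CPM for deviations used a prior count of 2, and relations used 100000 permutations within groups (SciPy 1.17.1). The scripts were tested on simulated data. Alternatives were DESeq2 1.42.0, RLE size factors, other count filters, 1 fit per tissue, no fold minimum, a replicate block, a muscle score covariate and leaving out each library. Library totals were at least 21047242 counts, so precision was limited by the number of libraries rather than by counting, except for Npas2 and Arntl in BAT. Labels give separate samples but not which libraries came from 1 mouse, so p-values measure the spread between these samples.

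Core clock genes, the other lists and the tests were chosen with earlier results of these data known. The text names all core clock genes and, from each other list and comparison, up to 3 called genes with the smallest p, apart from 1 gene that is not reported here. Library choices by muscle RNA and the Per2 to Nr1d1 ratio were added after the values were seen. Promoter motifs were read from RefSeq promoters.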

Additional observations from a re-analysis of the deposited data

Results flagged for a closer look

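In groups of 4 libraries, 50 sets of values were screened for a single library far from the rest by Dixon's criterion, and 0 passed it, whereas chance alone would pass about 1 in 20. Differences in response between BAT and SkM were flagged for Cry1 and Per3. For CR against control, the Cry1 log2 fold change was larger in BAT by 1.53 ± 0.23 SE (edgeR adjusted p = 0.00109). For CREX against EX the Cry1 difference was 1.13 ± 0.22 SE (adjusted p = 0.0108). Per3 differed by 1.20 ± 0.26 SE for CREX against EX (adjusted p = 0.0199), with log2 fold changes of 0.42 in BAT and -0.78 in SkM. The Per3 call was lost without SkM CREX replicate 2, without SkM CREX replicate 3 and without the 3 BAT libraries richest in muscle RNA (difference 1.16, adjusted p = 0.105).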

How the results depend on the processing

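Of 1222 values of single genes under an alternative, 1162 kept their direction and side of the threshold, 32 lost and 24 gained a call, and 4 turned direction. Those were Per2 in BAT EX against control without the libraries richest in muscle RNA (-0.018) and Per1 in SkM EX against control without single libraries (range -0.30 to 0.16, above 0 in 3 of 8), none of them called. Many of the 1222 values belonged to results not called in the main fit, which could not lose a call. Results for training on top of CR, interactions and tissues entered this count only at an unadjusted edgeR p under 0.05.

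Counts of called core clock genes moved as follows. Without the libraries richest in muscle RNA (chosen after seeing the data), BAT CREX against EX had 1 instead of 2, and the tissue difference for CREX against EX 1 instead of 2. In SkM CR against control the count was 4 instead of 2 without a fold minimum. DESeq2 and 1 fit per tissue both gave 2 instead of 1 in SkM CREX against EX. In SkM EX against control DESeq2 gave 3 and 1 fit per tissue 0, instead of 1. DESeq2 gave 1 instead of 0 interactions in SkM and 2 instead of 1 tissue differences for CR. Leaving out each library in turn gave 3 to 6 (5 with all libraries) for BAT CR, 2 to 3 for BAT CREX against EX, 2 to 5 for SkM CR, 1 to 2 for SkM CREX against EX, 0 to 2 for SkM EX, 1 to 2 for each tissue difference and 5 to 6 (6 with all) for control levels.

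Same-numbered libraries did not consistently deviate together (mean correlation per comparison from -0.25 to 0.18, single pairs from -0.41 to 0.53). With 3 or 4 pairs per comparison, whether the numbers pair libraries cannot be settled. With a replicate block the count was 4 for BAT CR (Per2 lost, 1.82 with an adjusted p of 0.110), 4 for SkM CR and 0 for SkM EX, with Arntl at -1.21 and an adjusted p of 0.151.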

Other observations

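By within-group deviations of log2 CPM, the non-member genes most like Arntl were Ube2n, Rnaseh1 and Vps36 in BAT (Spearman's rho 0.89, 0.88 and 0.88, 15 libraries, 13912 genes) and Eif3d, Zfp341 and Trim27 in SkM (rho 0.93, 0.91 and 0.89, 14 libraries, 13600 genes). Those most like Nr1d1 were Scaf8, Trip11 and Trmt44 in BAT (rho 0.93, 0.91 and 0.91) and Mettl1, Tfg and Rad1 in SkM (rho 0.93, 0.93 and 0.90). The 3 highest of all these correlations on 14 or 15 libraries are given as a description, and the libraries share depth and tissue composition.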
